A study of Caenorhabditis elegans with 12 samples.

Results

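Nuclear hormone receptors are transcription factors with a zinc finger DNA-binding domain and, in most, a pocket that can bind a small lipophilic ligand such as a steroid, a bile acid or a fatty acid. Caenorhabditis elegans carries a far larger set than vertebrates or insects, most of it related to the vertebrate receptor HNF4. The few worm receptors studied in detail regulate fat storage and oxidation, molting, detoxification and the fates of single cells. The receptors described here are the 217 genes whose name begins with nhr- and a number, except 1 that was not analysed here. Each was taken from a gene feature of the deposited annotation that names 1 coding gene. The annotation holds 31753 features in all, of which 17216 name 1 coding gene, and 207 of the 217 symbols matched the reference gene table. Another 21 features merge an nhr name with other coding genes and were not counted as members, since their reads cannot be given to 1 gene.

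The libraries were made by PAT-seq, which tags the 3' ends of polyadenylated RNA, counts them per gene and reads the length of the poly(A) tail. All 12 libraries came from early embryos, over 90% of them between the zygote and the 24-cell stage, and formed 6 groups of 2. The control was wild-type N2. Another 4 groups were N2 worms in which pos-1, gld-3, gld-2 or else mex-5 was depleted by RNAi, through feeding on HT115(DE3) bacteria whose double-stranded RNA was induced for 6 h with IPTG. The last group carried the allele mex-6(pk440). The proteins of pos-1, mex-5 and mex-6 bind maternal RNA through CCCH zinc fingers. GLD-2 lengthens poly(A) tails in the cytoplasm and GLD-3 tethers it to RNA. The labels give the growth on OP50 bacteria and the RNAi feeding to all samples alike, so an effect of the food cannot be told apart from that of RNAi in the comparisons with N2. The labels do not say whether replicates were separate cultures, and p-values thus measure only the spread between these samples, which may be technical.

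The 12 libraries held 4613974 to 10229871 reads in genes, of which 2282121 to 5294610 were not ribosomal RNA. The targeted gene was lower in each RNAi or mutant group than in N2. In CPM (reads scaled to library size with TMM factors), mex-5 stood at 457 and 449 in N2 and at 38.6 and 34.3 under mex-5 RNAi, where mex-6 was also low, at 24.0 and 14.9 against 205 and 244 in N2. The receptors held between 3161 and 7564 reads of a library. Their summed level was 582 and 570 CPM in N2, 720 and 775 under pos-1 RNAi, 633 and 649 under gld-3 RNAi, 735 and 794 under gld-2 RNAi, 889 and 976 under mex-5 RNAi, and 623 and 651 in mex-6(pk440). On this scale both mex-5 RNAi libraries were above the other 10, but that ranking depended on the scaling. The TMM factors were 0.935 and 0.749 under mex-5 RNAi and 1.4 and 0.983 under gld-2 RNAi. Without them, mex-5 RNAi replicate 1 held 5459 receptor reads among 3455218 that were not ribosomal RNA. For gld-2 RNAi replicate 1 these were 7564 among 4760673, a slightly larger share.

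The receptor genes were concentrated on chromosome V, which held 133 of the 217 (61.3%) against 25.8% of all features with 1 coding gene. Many lay side by side. With neighbours defined as receptors less than 5000 bp apart, 103 of the 217 fell in 32 runs, 24 of them on chromosome V. Most of the family was scarce in these embryos. No read was seen in any library for 24 genes, another 50 had under 10 reads in all 12 libraries together, and 143 had 10 or more. A mean of 1 CPM was reached by 93 genes (42.9%, against 50.04% of features with 1 coding gene) and a mean of 10 CPM by 19 (8.76%, against 27.9%). The filter on low counts left 97 receptors for the test of expression. Of these, 9 passed through 2 libraries alone, of which nhr-177, nhr-208 and nhr-212 did so through the mex-5 RNAi libraries and nhr-203 through the gld-2 RNAi libraries, so these 4 could enter the test only by being higher there.

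The signal was concentrated in a few receptors. The 12 most abundant of the 217 held between 44.6% and 54.1% of the receptor reads of a library. One 3' end is read per transcript, so CPM was compared between genes without a correction for length. The highest was nhr-49, an HNF4-like regulator of fatty acid desaturation and beta-oxidation, with a mean of 51.5 CPM over the 12 libraries, rank 1608 among features with 1 coding gene. It was followed by nhr-48, a relative of the steroid receptor DAF-12, at 46.7 CPM, and by nhr-23, the ROR ortholog that drives molting in larvae, at 42.4 CPM. Next came nhr-97 at 32.7, nhr-31 at 28.1, nhr-1 at 25.03, nhr-64 at 24.5, nhr-34 at 23.3, nhr-17 at 22.2, nhr-2 at 21.8, nhr-66 at 20.5 and nhr-68 at 17.4 CPM. In N2 alone the order was different: nhr-23 (43.8 and 40.04 CPM), nhr-48 (41.3 and 38.96) and nhr-49 (41.3 and 29.9) overlapped at the top, and nhr-2 (28.5 and 25.8) stood next.

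**Figure D1:**
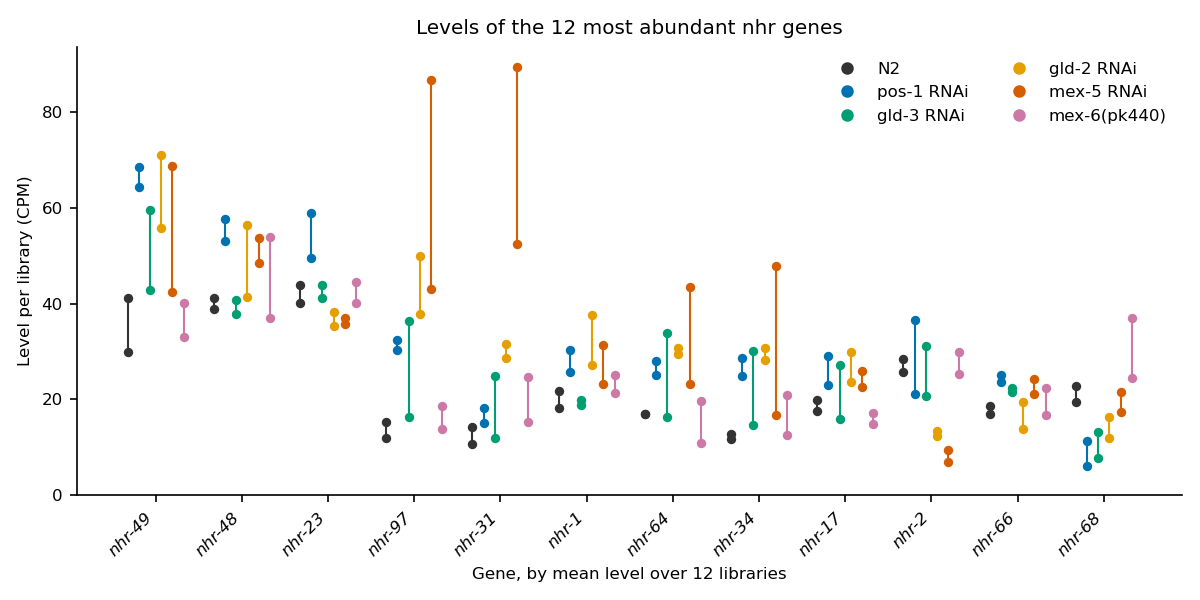
Level in CPM (vertical axis, linear) of the 12 most abundant nhr genes, ordered by their mean over 12 libraries; each point is 1 library, colours mark the 6 groups, and a line joins the 2 replicates of a group. Both mex-5 RNAi libraries were above all others for nhr-31, and both were below all others for nhr-2.

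The largest movement of the family was under mex-5 RNAi. Of the 97 receptors tested, 30 were higher and 4 lower than in N2 (edgeR quasi-likelihood test, Benjamini-Hochberg adjusted p under 0.05), a share of 35.1%. Over all 9403 genes tested, 30.8% passed in either direction, 18.4% upward and 12.5% downward, so the receptors' share of calls was near that of all genes while their share of rises, 30.9%, was above it and their share of falls, 4.12%, below it. Leaving out nhr-177, nhr-208 and nhr-212, whose rise the low-count filter fixed, 27 of 94 rose (28.7%). The share over all genes was not recomputed in this way. Among the 27, nhr-120 reached the filter's level in 3 libraries, 2 of mex-5 RNAi and 0 of N2, so its entry also needed a mex-5 RNAi library. The median log2 change of the 97 was 0.80, against -0.04 over all genes tested. In each of the 34 called genes the 2 mex-5 RNAi libraries did not overlap the 2 N2 libraries. The receptors called in every other comparison were also apart in this way. With 2 libraries per group a call largely requires it, so it is no added support. Many of the rises were from low levels: 14 of the 30 genes reached the filter's level in both N2 libraries, and 12 in neither. The summed level of 11 markers of late embryo and larval tissue was 427 to 450 CPM in N2 and 1350 to 1355 CPM under mex-5 RNAi, with none of the 11 at 0, and 7 maternal markers were at 2713 to 3144 and 1971 to 2583 CPM. The 26 sperm markers summed to 152 to 214 CPM in N2 and 11.9 to 15.97 CPM under mex-5 RNAi, with msp-38, msp-50 and msp-63 at 0 and 24 of the 25 tested called lower. The 8 yolk and adult intestine markers summed to 243 to 385 and 309 to 319 CPM, with none at 0. These sums hide opposite changes: 5 of the 8 were called lower and 2 higher, with a median log2 change of -1.93. Of them, vit-4 went from 52.9 and 92.0 CPM to 10.6 and 9.69, and asp-1 from 88.1 and 136 to 232 and 244. The part of embryo stage, carried-over adult or sperm RNA, or cell makeup in the receptors' changes was not tested, and in bulk RNA more cells of a type cannot be told apart from more RNA per cell.

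**Figure D2:**
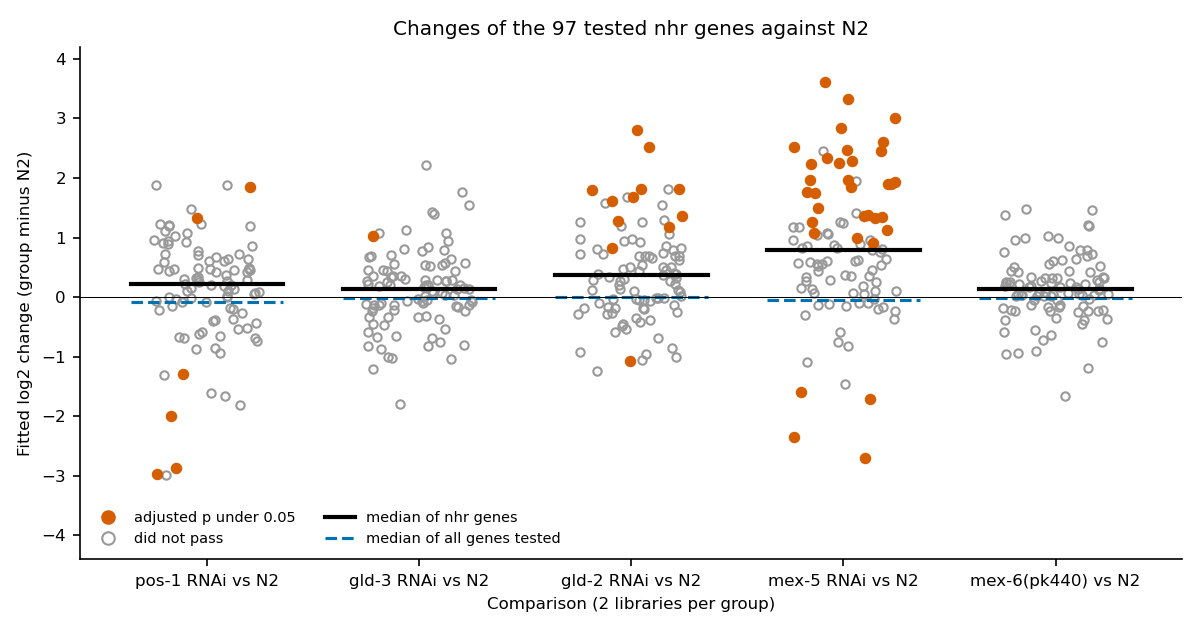
Fitted log2 change (vertical axis, group minus N2) of the 97 tested nhr genes in the 5 comparisons with N2, which share the 2 N2 libraries; filled points passed at an adjusted p under 0.05, the black line is the median of the nhr genes and the dashed line that of all genes tested. The median of the nhr genes under mex-5 RNAi was 0.80 and that of all genes -0.04.

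The 4 falls under mex-5 RNAi included 2 receptors known from development. The gene nhr-2 (NM_059288; chrI:5818875-5821111, - strand, ce10) encodes a receptor expressed early in the embryo and needed for its development. It stood at 28.5 and 25.8 CPM in N2 and at 9.45 and 6.96 CPM under mex-5 RNAi, with 21.2 and 36.5 under pos-1 RNAi, 31.2 and 20.6 under gld-3 RNAi, 12.3 and 13.5 under gld-2 RNAi and 25.3 and 29.9 in mex-6(pk440). The mex-5 RNAi libraries were the lowest of the 12 and the gld-2 RNAi libraries the next lowest. The log2 change under mex-5 RNAi was -1.71 ± 0.32 (SE; edgeR adjusted p = 0.00153). The gene nhr-67 (NM_069693; chrIV:11169813-11174521, + strand) is the ortholog of tailless, a regulator of neural and gonadal cell fates. It was at 7.73 and 4.15 CPM in N2 and 1.14 and 1.24 CPM under mex-5 RNAi, and at 7.25 and 6.21, 7.76 and 4.81, 7.19 and 9.94 and 6.56 and 8.19 CPM under pos-1, gld-3 and gld-2 RNAi and in mex-6(pk440). All 10 other libraries lay above both mex-5 RNAi libraries, and the log2 change was -2.35 ± 0.47 (SE; edgeR adjusted p = 0.00227).

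The other falls rested on fewer reads. For nhr-270 the mex-5 RNAi libraries held 3 and 0 reads and the N2 libraries 20 and 11, so that the level was 14.8% of that in N2, with an exact 95% interval of 2.89% to 47.3% that covers counting error only (edgeR adjusted p = 0.0129). Without mex-5 RNAi replicate 2 the adjusted p was 0.0824. For nhr-168 the levels were 4.02 and 3.97 CPM in N2 and 0.815 and 1.99 under mex-5 RNAi (log2 change -1.59 ± 0.52, SE; edgeR adjusted p = 0.0338). Its call was lost without N2 replicate 1, N2 replicate 2 or mex-5 RNAi replicate 1, at adjusted p of 0.104, 0.0779 and 0.275.

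Among the rises, nhr-31 (NM_001026159; chrIV:8023236-8029409, - strand), which controls proton pump genes in the excretory cell, and nhr-97 (NM_001047489; chrIV:9757784-9763539, + strand) were among the most abundant receptors under mex-5 RNAi. The level of nhr-31 was 10.7 and 14.2 CPM in N2 and 89.4 and 52.4 CPM under mex-5 RNAi. In the other groups it was 15.1 and 18.1 CPM under pos-1 RNAi, 24.8 and 11.8 under gld-3 RNAi, 31.6 and 28.7 under gld-2 RNAi and 24.6 and 15.3 in mex-6(pk440). Both mex-5 RNAi libraries exceeded the other 10, and the log2 change was 2.52 ± 0.38 (SE; edgeR adjusted p = 0.000316). The level of nhr-97 was 15.2 and 11.9 CPM in N2 and 43.01 and 86.7 under mex-5 RNAi, and the gld-2 RNAi libraries, at 37.9 and 49.9, lay within or below that range and above N2. Under pos-1 RNAi it was 30.2 and 32.4, under gld-3 RNAi 16.2 and 36.4 and in mex-6(pk440) 13.8 and 18.6 CPM. The log2 change of nhr-97 under mex-5 RNAi was 2.24 ± 0.40 (SE; edgeR adjusted p = 0.00099). The smallest adjusted p of the family belonged to nhr-104 (NM_171326; chrIV:4784548-4788428, - strand), at 3.51 and 2.71 CPM in N2 and 13.7 and 18.6 CPM under mex-5 RNAi (log2 change 2.34 ± 0.32, SE; edgeR adjusted p = 0.000149). Its 8 libraries of the other groups lay between 3.71 and 6.72 CPM, below both mex-5 RNAi libraries.

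Of 12 tested receptors known in lipid, propionate, vitamin B12 or iron metabolism, 5 rose under mex-5 RNAi and none fell, beside 18.4% and 12.5% of all genes tested and 30.9% and 4.12% of the 97 receptors. The 12 had a median log2 change of 1.01, against 0.80 for the 97 receptors and -0.04 over all genes tested. The list was chosen with earlier results of these data known, and its difference from the family was not tested. The 5 were nhr-80, nhr-14, nhr-69, nhr-76 and nhr-8. The level of nhr-80, a partner of NHR-49 in the control of fatty acid desaturases, was 1.61 and 1.62 CPM in N2 and 6.19 and 6.21 under mex-5 RNAi (log2 change 1.93 ± 0.45, SE; edgeR adjusted p = 0.00625). The level of nhr-14, an HNF4-like receptor of iron homeostasis, was 1.31 and 1.44 CPM in N2 and 5.70 and 4.47 under mex-5 RNAi (log2 change 1.90 ± 0.39, SE; edgeR adjusted p = 0.0028). In both genes the replicates lay close together against the distance between the groups. The HNF4-like nhr-69 was at 4.52 and 8.12 CPM in N2 and 16.1 and 15.4 under mex-5 RNAi (edgeR adjusted p = 0.00756). The fat regulator nhr-76 was at 3.11 and 3.25 CPM and 8.96 and 7.20 CPM (edgeR adjusted p = 0.00734). The level of nhr-8, a receptor of cholesterol balance and drug resistance, was 0.402 and 2.34 CPM in N2 and 4.72 and 7.20 CPM under mex-5 RNAi (edgeR adjusted p = 0.0142). The N2 replicates of nhr-8 were far apart. Without N2 replicate 1 its log2 change went from 2.28 to 1.31 (adjusted p 0.138), and without mex-5 RNAi replicate 2 its adjusted p was 0.0763. The call of nhr-69 was lost without N2 replicate 1 (log2 change 0.95, adjusted p 0.0941). That of nhr-76 was lost without N2 replicate 1 or mex-5 RNAi replicate 1 (adjusted p 0.058 and 0.0656).

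The 7 metabolic receptors that did not pass under mex-5 RNAi held the most abundant ones. The level of nhr-49 was 42.4 and 68.8 CPM there against 41.3 and 29.9 in N2 (log2 change 0.63, edgeR adjusted p = 0.109), and that of its lipid partner nhr-66 was 21.02 and 24.3 against 16.97 and 18.6 CPM (log2 change 0.35). The HNF4-like nhr-64 was at 23.1 and 43.5 against 16.9 and 16.95 CPM (log2 change 0.97, edgeR adjusted p = 0.0709). For nhr-49 the mex-5 RNAi replicates were further apart than their mean was from that of N2. The log2 change was 0.36 for nhr-10 and -0.11 for nhr-68, both regulators of the propionate shunt. It was 1.06 for nhr-62, known in dietary restriction, and 0.26 for nhr-114, known in vitamin B12 and methionine metabolism.

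Of 7 developmental receptors in the list, 5 were tested, with 1 rise and 2 falls under mex-5 RNAi. Over all genes tested 18.4% rose and 12.5% fell, and 5 genes are too few to set the list apart. The falls were nhr-2 and nhr-67. The rise was nhr-40, a receptor of embryonic muscle development, at 7.03 and 6.31 CPM in N2 and 13.4 and 13.2 under mex-5 RNAi (log2 change 0.98 ± 0.27, SE; edgeR adjusted p = 0.0157). That call was kept without mex-5 RNAi replicate 2 and lost without N2 replicate 1, N2 replicate 2 or mex-5 RNAi replicate 1, at adjusted p of 0.0611, 0.0764 and 0.0645. The molting regulator nhr-23 was at 35.7 and 37.02 CPM under mex-5 RNAi against 43.8 and 40.04 in N2 and did not pass (log2 change -0.21). The level of nhr-60, known in seam cells, was 1.47 and 0.994 against 1.51 and 1.26 CPM (log2 change -0.15). The other two receptors in the list, nhr-6 and nhr-85, had too few reads for the test, 25 and 61 over all libraries.

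Another 21 receptors rose under mex-5 RNAi, among them the 3 whose direction the low-count filter fixed. Without that filter nhr-208 and nhr-212 still passed (edgeR adjusted p = 5.3e-06 and 0.0101), and nhr-177 did not (0.0519). The largest fitted change was that of nhr-208 (NM_073633; chrV:12094355-12095876, + strand), from 0.201 and 0.541 CPM in N2 to 4.07 and 4.47 CPM (log2 change 3.62 ± 0.64, SE; edgeR adjusted p = 0.000924), a gene with 2 and 3 reads in the N2 libraries. Its neighbour nhr-209 (NM_073635; chrV:12098369-12100009, + strand) went from 0.703 and 1.26 to 4.72 and 6.96 CPM (log2 change 2.61 ± 0.47, SE; edgeR adjusted p = 0.00114). For nhr-208 all 10 other libraries were at 1.10 CPM or less. The remaining 19 were nhr-3, nhr-11, nhr-34, nhr-45, nhr-50, nhr-58, nhr-90, nhr-94, nhr-109, nhr-120, nhr-137, nhr-140, nhr-147, nhr-153, nhr-163, nhr-172, nhr-177, nhr-212 and nhr-221. Their log2 changes ran from 0.90 (nhr-45) to 3.32 (nhr-50), and their adjusted p from 0.00504 (nhr-94) to 0.0351 (nhr-212).

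The calls differed in how far they rested on single libraries. Only 9 of the 34 passed with each of the 4 libraries left out in turn and under the other planned settings: nhr-2, nhr-14, nhr-31, nhr-67, nhr-80, nhr-97, nhr-104, nhr-208 and nhr-209, of which nhr-208 entered the main test only through its mex-5 RNAi libraries. Without N2 replicate 1, 13 of the 34 passed, without N2 replicate 2, 19, without mex-5 RNAi replicate 1, 20, and without mex-5 RNAi replicate 2, 22. All 34 kept their direction in each of these. A call that rested on 1 library was that of nhr-34, at 16.6 and 47.95 CPM under mex-5 RNAi and 12.9 and 11.7 in N2, whose log2 change of 1.37 fell to 0.47 (adjusted p 0.48) without mex-5 RNAi replicate 2.

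**Figure D3:**
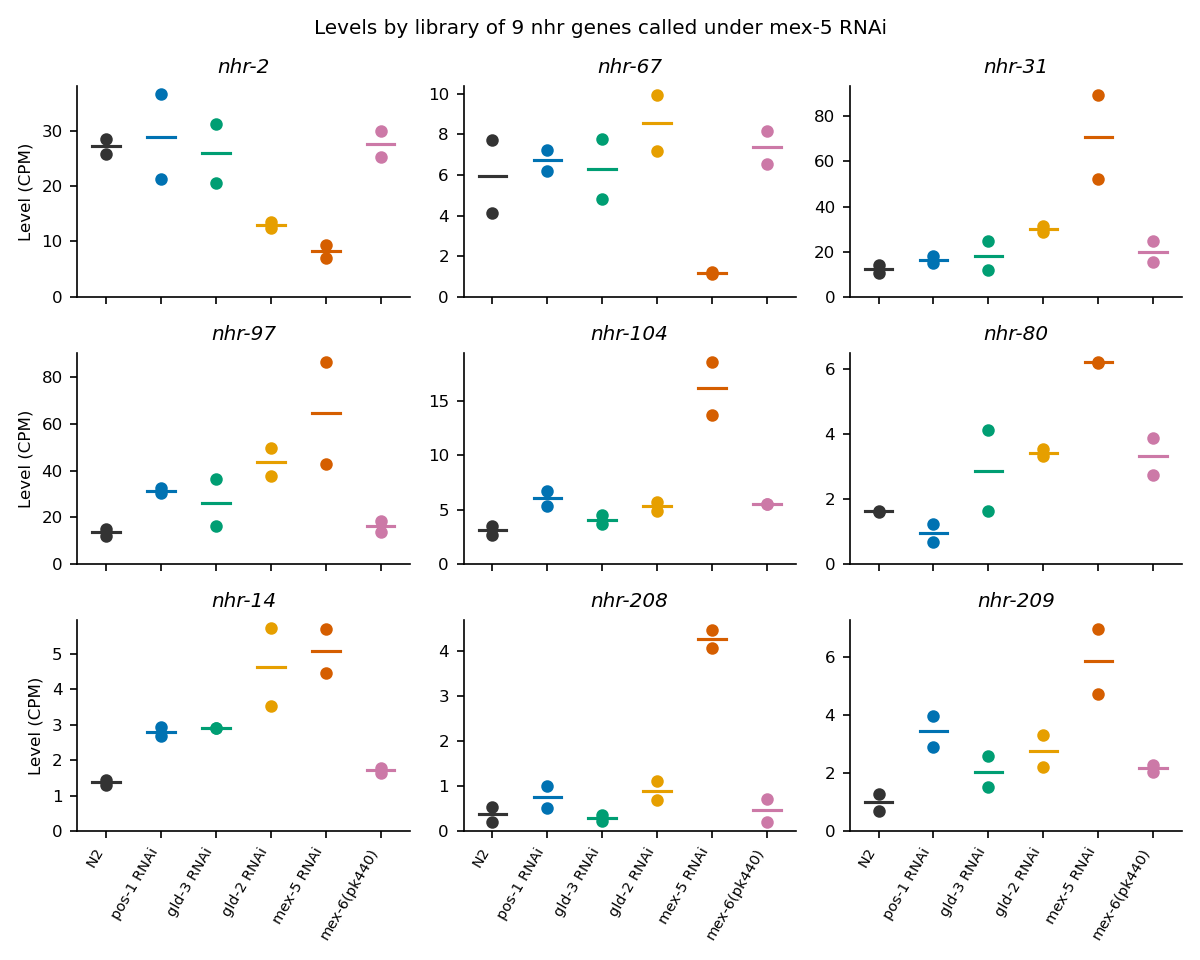
Level in CPM (vertical axes, linear from 0, each panel with its own scale) of the 9 nhr genes whose call under mex-5 RNAi held with every library of the comparison left out; each point is 1 library and each bar the mean of 2. In nhr-2 and nhr-67 the mex-5 RNAi libraries were the lowest, and in nhr-31, nhr-104, nhr-208 and nhr-209 they were above all other libraries.

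The gene mex-6 encodes the close relative of MEX-5. Its level was also low under mex-5 RNAi, at 24.0 and 14.9 CPM against 205 and 244 in N2 and 7.03 and 3.07 in mex-6(pk440). The comparison with the mutant thus sets a fall of both transcripts beside a fall of mex-6. Set against mex-6(pk440), the mex-5 RNAi group had 15 receptors higher and 3 lower (18.6% of 97, with 20.8% of all genes tested passing in either direction, 14.6% upward and 6.25% downward). The 3 lower were nhr-67, nhr-270 and nhr-2. The 15 higher held nhr-208 and nhr-212, which entered the test only through the mex-5 RNAi libraries, so the low-count filter fixed their direction. Without that filter both still passed (edgeR adjusted p = 0.000187 and 0.0113). The 15 also included 2 receptors that did not pass against N2. The level of nhr-130 was 3.42 and 8.70 CPM under mex-5 RNAi and 1.55 and 1.23 in mex-6(pk440) (log2 change 2.03 ± 0.48, SE; edgeR adjusted p = 0.0088). The mex-5 RNAi replicates of nhr-130 were far apart. The level of nhr-108 was 2.77 and 1.49 and 0.477 and 0 CPM, with 4 and 0 reads in mex-6(pk440) (edgeR adjusted p = 0.0273). Without mex-5 RNAi replicate 2 the adjusted p of nhr-130 was 0.12, and without mex-6(pk440) replicate 1 or 2 it was 0.0642 and 0.058. The call of nhr-108 did not hold without mex-5 RNAi replicate 1 (adjusted p 0.208) or mex-6(pk440) replicate 2 (0.125). Of the 18 calls, nhr-2, nhr-67, nhr-104 and nhr-208 passed with every library left out in turn, and 11, 9, 6 and 7 of the 18 passed without mex-5 RNAi replicate 1, mex-5 RNAi replicate 2, mex-6(pk440) replicate 1 and mex-6(pk440) replicate 2.

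Against N2, no receptor passed in mex-6(pk440) by edgeR or by DESeq2, while 0.0213% of all genes passed by edgeR. At an unadjusted p under 0.05 by edgeR there were 6 of 97 receptors, and 860 of all 9403 genes tested. The fitted log2 changes of the 97 lay between -1.65 and 1.48, with a median of 0.13 against -0.01 over all genes tested. The gene nhr-2 was at 25.3 and 29.9 CPM in the mutant and nhr-31 at 24.6 and 15.3 CPM.

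One run of neighbouring receptors on chromosome V, singled out after its values were seen, held nhr-206, nhr-208, nhr-207, nhr-209, nhr-154, nhr-153 and nhr-136 in that order on the plus strand (chrV:12092045-12109118, ce10). Of these 7 genes, 5 were tested, and nhr-208, nhr-209 and nhr-153 passed upward under mex-5 RNAi. The level of nhr-153 was 0.703 and 1.08 CPM in N2 and 6.52 and 2.73 CPM under mex-5 RNAi (log2 change 2.46 ± 0.73, SE; edgeR adjusted p = 0.0217). Its mex-5 RNAi replicates were far apart, and the call was lost without mex-5 RNAi replicate 1, N2 replicate 1 or N2 replicate 2 (adjusted p 0.243, 0.138 and 0.0524). The most abundant of the run in N2, nhr-154, was at 3.82 and 3.61 CPM in N2, 7.33 and 6.21 under mex-5 RNAi and 7.39 and 7.78 in mex-6(pk440), and did not pass in the comparison of mex-5 RNAi with N2 (edgeR adjusted p = 0.0515). The smallest levels were those of nhr-207, at 0.100 and 0.361 CPM in N2 and 0.815 and 0.497 under mex-5 RNAi. The sources used here do not say how reads that match more than 1 of such related neighbours were assigned, and their separate levels are uncertain. Over the whole of chromosome V, 54 of 133 receptors were tested and 14 rose under mex-5 RNAi, where 23.8% of all features with 1 coding gene that were tested on V rose. The counts were 7 of 16 on chromosome IV and 6 of 13 on X, beside 18.4% and 25.8% of such features. On chromosomes I, II and III they were 1 of 6, 1 of 5 and 1 of 3, beside 14.1%, 15.9% and 13.5%. The difference between chromosomes was not tested.

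**Figure D4:**
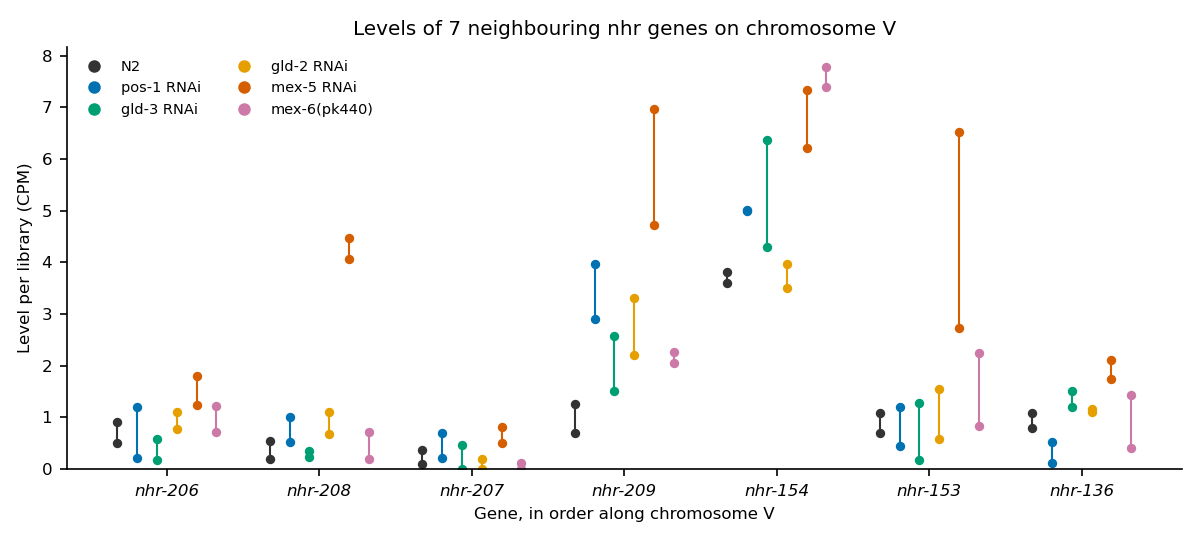
Level in CPM (vertical axis, linear) of 7 neighbouring nhr genes in their order along chromosome V (spacing not to scale); each point is 1 library and lines join replicates. The mex-5 RNAi libraries were the highest for nhr-208 and nhr-209, while nhr-154 was not below 3.499 CPM in any library.

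Under gld-2 RNAi, 11 receptors were higher and 1 was lower than in N2 (12.4% of 97; 27.2% of all genes tested passed in either direction and 14.4% upward, 12.8% downward). Set against the mex-6(pk440) libraries instead, an alternative chosen after seeing the data, the gld-2 RNAi group had 3 receptors higher and 3 lower. The family's share of calls was thus below that of all genes, and its share of rises, 11.3%, also below. The median log2 change of the 97 was 0.37 against -0.01 over all genes tested. The comparison shares its N2 libraries with the others. The 11 late tissue markers summed to 839 to 971 CPM under gld-2 RNAi against 427 to 450 in N2, and the 7 maternal markers to 1291 to 1464 against 2713 to 3144. The 8 yolk and adult intestine markers stood at 510.2 to 529 CPM against 243 to 385, and the 26 sperm markers at 181 to 195 against 152 to 214. The part of these differences in the receptors' changes was not tested.

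The fall was again nhr-2, at 12.3 and 13.5 CPM under gld-2 RNAi against 28.5 and 25.8 in N2 (log2 change -1.08 ± 0.31, SE; edgeR adjusted p = 0.0216). The groups were well apart. The smallest adjusted p among the rises was that of nhr-14, from 1.31 and 1.44 to 5.73 and 3.53 CPM (log2 change 1.80 ± 0.38, SE; edgeR adjusted p = 0.00522). It was followed by nhr-45, from 8.64 and 7.39 to 16.6 and 20.1 CPM (edgeR adjusted p = 0.0075), and nhr-97, from 15.2 and 11.9 to 37.9 and 49.9 CPM (edgeR adjusted p = 0.00844). The excretory cell receptor nhr-31 stood at 31.6 and 28.7 CPM (log2 change 1.28 ± 0.37, SE; edgeR adjusted p = 0.0227), below both mex-5 RNAi libraries and above both N2 libraries. The fat oxidation regulator nhr-49 was at 55.8 and 71.1 CPM against 41.3 and 29.9 in N2 (log2 change 0.82 ± 0.28, SE; edgeR adjusted p = 0.0447). The remaining rises were nhr-3, nhr-50, nhr-109, nhr-147, nhr-203 (whose direction the low-count filter fixed) and nhr-209, with log2 changes from 1.36 (nhr-3) to 2.80 (nhr-109). No call of the 12 passed with each library left out in turn: 3, 3, 4 and 4 of the 12 passed without N2 replicate 1, N2 replicate 2, gld-2 RNAi replicate 1 and gld-2 RNAi replicate 2, and the highest adjusted p in these were 0.233, 0.238, 0.345 and 0.208. For nhr-14 it was 0.0544 without N2 replicate 1 and 0.066 without gld-2 RNAi replicate 1, and for nhr-45 0.0518 without N2 replicate 2.

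Under pos-1 RNAi, 2 receptors were higher and 4 lower than in N2 (6.19% of 97; 12.2% of all genes tested passed in either direction, 4.69% upward and 7.52% downward). The balance depended on the settings: with the replicate number as a block 8 were higher and 5 lower, without the low-count filter 9 and 6, by DESeq2 3 and 3, and against the mex-6(pk440) libraries 0 and 3. The falls held nhr-68, a regulator of the propionate shunt, and nhr-57, a gene induced by hypoxia. The level of nhr-68 was 19.5 and 22.7 CPM in N2, 6.13 and 11.4 under pos-1 RNAi, 13.1 and 7.73 under gld-3 RNAi, 11.96 and 16.3 under gld-2 RNAi, 21.5 and 17.4 under mex-5 RNAi and 37.1 and 24.4 in mex-6(pk440). Both pos-1 RNAi libraries and gld-3 RNAi replicate 2 were the 3 lowest of the 12, and the mutant libraries were the 2 highest. The log2 change under pos-1 RNAi was -1.29 ± 0.36 (SE; edgeR adjusted p = 0.0324) and that under gld-3 RNAi -0.9997 ± 0.35 (SE; edgeR adjusted p = 0.0953). The level of nhr-57 was 3.62 and 4.87 CPM in N2 and 1.67 and 0.172 under pos-1 RNAi (log2 change -1.995 ± 0.55, SE; edgeR adjusted p = 0.0301). Its pos-1 RNAi replicates held 15 and 1 reads. Of the 4 called falls, the largest was that of nhr-132, from 1.91 and 5.05 to 0.446 and 0.345 CPM (log2 change -2.98 ± 0.62, SE; edgeR adjusted p = 0.00811). For nhr-232 the pos-1 RNAi libraries held 1 and 1 reads and the N2 libraries 10 and 7, a level 12.3% of that in N2 with an exact 95% interval of 1.38% to 52.0% for counting error only (edgeR adjusted p = 0.0478).

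The rises under pos-1 RNAi were nhr-94, from 3.31 and 3.97 to 8.59 and 9.65 CPM (log2 change 1.33 ± 0.33, SE; edgeR adjusted p = 0.0198), and nhr-209, from 0.703 and 1.26 to 2.90 and 3.97 CPM (log2 change 1.85 ± 0.48, SE; edgeR adjusted p = 0.0241). Of the receptors called against N2, nhr-209 was the 1 called in 3 comparisons, under pos-1, gld-2 and mex-5 RNAi, which share the N2 libraries. The most abundant receptor, nhr-49, did not pass (log2 change 0.89 ± 0.28, SE; edgeR adjusted p = 0.0552). None of the 6 calls passed with each library left out: 1, 0, 4 and 1 of the 6 passed without N2 replicate 1, N2 replicate 2, pos-1 RNAi replicate 1 and pos-1 RNAi replicate 2, and none with the 4 libraries fitted alone. Without pos-1 RNAi replicate 1 the log2 change of nhr-68 went to -0.82 (adjusted p 0.246), and without pos-1 RNAi replicate 2 that of nhr-57 went to -1.22 (adjusted p 0.177). The summed level of 8 yolk and adult intestine markers was 243 to 385 CPM in N2 and 27.6 to 78.4 CPM under pos-1 RNAi, with none at 0, and that of 26 sperm markers was 152 to 214 and 35.3 to 59.5 CPM, with msp-63 at 0 under pos-1 RNAi. The 11 late tissue markers summed to 752 to 771 CPM against 427 to 450. This sum hides opposite changes, since 4 of the 11 were called higher and 2 lower. The level of lin-26 went from 144.9 and 144.7 CPM in N2 to 287.9 and 308.1 under pos-1 RNAi. That of unc-15 went from 67.98 and 80.08 to 31.33 and 26.89 CPM. The part of these markers in the receptors' changes was not tested.

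Under gld-3 RNAi, 1 receptor passed (1.03% of 97; 8.08% of all genes tested passed in either direction and 4.06% upward). The level of nhr-47 was 10.8 and 7.94 CPM in N2 and 19.9 and 18.5 CPM under gld-3 RNAi (log2 change 1.02 ± 0.26, SE; edgeR adjusted p = 0.0298). The gld-3 RNAi libraries were the highest of the 12, and the pos-1 RNAi libraries reached 16.9 and 13.1 CPM. The call was lost without N2 replicate 2, gld-3 RNAi replicate 1 or gld-3 RNAi replicate 2, at adjusted p of 0.208, 0.0827 and 0.0853. The median log2 change of the 97 was 0.14, against -0.02 over all genes tested. The 26 sperm markers summed to 31.9 to 41.9 CPM under gld-3 RNAi against 152 to 214 in N2, with 22 of the 25 tested called lower, and the 8 yolk and adult intestine markers to 139.8 to 153 against 243 to 385 CPM. The 11 late tissue markers were at 601 to 677 against 427 to 450 CPM. No marker of these lists was at 0, and their part in the change of nhr-47 was not tested.

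Between pos-1 and gld-3 RNAi, the 1 receptor that passed was nhr-8 (1.03% of 97; 4.56% of all genes tested). Its libraries held 2 and 0 reads under pos-1 RNAi and 28 and 18 under gld-3 RNAi, so that the level under pos-1 RNAi was 4.26% of that under gld-3 RNAi, with an exact 95% interval of 0.500% to 16.3% for counting error only (edgeR adjusted p = 0.0153). The N2 libraries held 4 and 13 reads, and the pos-1 RNAi group did not pass against them (edgeR adjusted p = 0.0874). The call against gld-3 RNAi did not hold without pos-1 RNAi replicate 1 (adjusted p 0.0541) or 2 (0.109). Between gld-3 and gld-2 RNAi, no receptor passed by edgeR or DESeq2, with 10.8% of all genes passing by edgeR. At an unadjusted p under 0.05 by edgeR there were 9 of 97 receptors, and 2629 of all 9403 genes tested. The smallest adjusted p was that of nhr-2 (log2 change 1.01 ± 0.31, SE; edgeR adjusted p = 0.0518).

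In all, 43 of the 97 tested receptors passed in at least 1 of the 8 comparisons (44.3%, below the 51.7% of all genes tested), and 54 in none. Several of the most abundant ones were among the 54. The level of nhr-48 ran from 36.96 to 57.6 CPM over the 12 libraries and that of nhr-23 from 35.3 to 58.99 CPM. Likewise nhr-1, nhr-17, nhr-64 and nhr-66 passed in none. Of 10 receptors listed as conserved outside nematodes, 8 had a feature of their own and 5 were tested. Of the 5, nhr-8 rose and nhr-67 fell under mex-5 RNAi, beside 18.4% and 12.5% of all genes tested. The gene nhr-8 was lower under pos-1 than under gld-3 RNAi, where 4.56% of all genes passed. None of the 5 passed in the other comparisons with N2, and 5 genes are too few to set the list apart. Of 4 listed for toxin, pathogen or hypoxia responses, 2 were tested, nhr-8 and nhr-57, whose calls are given above. The GCNF relative nhr-91 was at 4.02 and 4.15 CPM in N2 and did not pass in any comparison. The gene nhr-111 had 23 reads over all libraries and was not tested.

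The wider nuclear receptor pathway was described with 17 genes that are not named nhr-, comprising other receptors, enzymes that make ligands, cofactors and targets. Of these, 16 had a feature of their own and 10 were tested. The steroid receptor daf-12 stayed at 0.745 CPM or less in each library, and the ligand enzyme daf-9 at 0.497 CPM or less. The sex determination receptor sex-1 was at 98.6 and 93.1 CPM in N2, above every nhr gene, and did not pass in any comparison. The corepressor din-1 was higher than in N2 (123 and 99.7 CPM) under pos-1 RNAi (215 and 249), gld-3 RNAi (195 and 215) and gld-2 RNAi (152 and 204). Its edgeR adjusted p were 0.00811, 0.0268 and 0.0358, and each was lost without N2 replicate 2 (adjusted p 0.0656, 0.182 and 0.2). Other libraries also ended these calls when left out, namely pos-1 RNAi replicate 2 for pos-1 RNAi (0.0517), N2 replicate 1 or gld-3 RNAi replicate 2 for gld-3 RNAi (0.0512 and 0.101), and N2 replicate 1 or gld-2 RNAi replicate 2 for gld-2 RNAi (0.0728 and 0.237).

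Among the targets, acdh-1, a propionate shunt enzyme whose gene is activated through NHR-10 and NHR-68, was at 57.8 and 72.5 CPM in N2 and 93.6 and 56.1 in mex-6(pk440). It was at 9.14 and 2.41 CPM under pos-1 RNAi, 7.41 and 3.61 under gld-3 RNAi, 19.7 and 10.2 under gld-2 RNAi and 7.98 and 3.73 under mex-5 RNAi. All 8 RNAi libraries were below the 4 others. The log2 changes against N2 were -3.43, -3.53, -2.09 and -3.43 (edgeR adjusted p = 0.00229, 0.0035, 0.00957 and 0.000541), and these passed with each library left out, except gld-2 RNAi without its replicate 2 (adjusted p 0.0896). Over the same groups nhr-68 passed under pos-1 RNAi and nhr-10 in none, at 6.73 and 7.39 CPM in N2 and between 5.08 and 9.69 CPM over all libraries. The food of the groups cannot be told apart from RNAi here. Other calls in the list were few: the acyl-CoA synthetase acs-2, an NHR-49 target, was lower under gld-3 RNAi (0.695 and 1.03 CPM against 3.01 and 6.31 in N2, edgeR adjusted p = 0.0264). That call was lost without N2 replicate 2 (0.197) or either gld-3 RNAi library (0.11 and 0.102). The neuronal receptor fax-1 was higher under gld-2 RNAi (5.93 and 7.29 CPM against 2.21 and 1.44, edgeR adjusted p = 0.00608) and lower under pos-1 RNAi than under gld-3 RNAi (0.781 and 0.690 against 3.36 and 3.78 CPM, edgeR adjusted p = 0.016). The second of these was lost without either pos-1 RNAi library (0.101 and 0.125) or gld-3 RNAi replicate 2 (0.0774). The desaturase fat-6, a target of NHR-49 and NHR-80, was higher under mex-5 RNAi than in mex-6(pk440), at 6.68 and 4.22 against 1.07 and 0.819 CPM (edgeR adjusted p = 0.00974). It no longer passed without mex-5 RNAi replicate 1 (0.0943) or either mex-6(pk440) library (0.0748 and 0.0675).

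Tail lengths could be followed for fewer receptors, since a gene needed at least 10 reads and a tail value in each of the 12 libraries and 36 met this. Another 65 had a tail value in some libraries and 116 in none. The mean tails of the 36 ran from 28.7 to 69.3 nt, with a median of 45.4 nt against 44.3 nt over the 5471 genes tested. The longest were those of nhr-34, at 73.7 and 58.9 nt in N2, 71.4 and 78.6 under gld-2 RNAi and 65.2 and 72.01 under mex-5 RNAi. Next were nhr-64 with a mean of 63.97 nt, nhr-94 with 63.9, nhr-78 with 61.7 and nhr-47 with 59.3 nt, and these 5 lay above the 90th percentile of all genes, 56.9 nt. The shortest was nhr-31, with a mean of 28.7 nt, the 1 receptor under the 10th percentile of 31.8 nt. Its tails were 27.4 and 20.8 nt in N2, 26.9 and 36.9 under pos-1 RNAi, 20.2 and 36.7 under gld-3 RNAi, 27.7 and 38.1 under gld-2 RNAi, 19.5 and 38.8 under mex-5 RNAi and 23.3 and 28.7 in mex-6(pk440). For nhr-31 the replicates of the gld-3 and mex-5 RNAi groups were further apart than the means of any 2 groups.

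**Figure D5:**
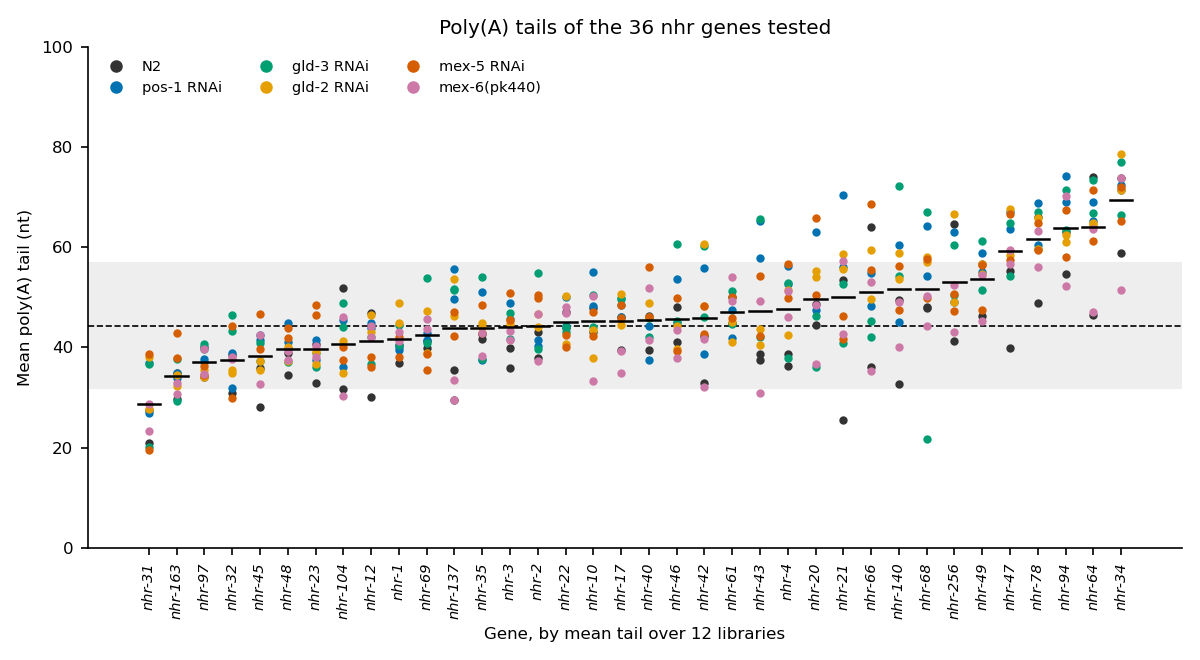
Mean poly(A) tail in nt (vertical axis, linear) of the 36 nhr genes tested, ordered by their mean over 12 libraries (black bars); each point is 1 library, the dashed line is the median of all genes tested (44.3 nt) and the grey band their 10th to 90th percentile (31.8 to 56.9 nt). The means rose from 28.7 nt in nhr-31 to 69.3 nt in nhr-34, and the libraries of most genes overlapped between groups.

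No receptor's tail differed between groups at an adjusted p under 0.05 by limma in any of the 8 comparisons. The share of all genes that passed was 0.0183% under pos-1 RNAi, 0.0183% under gld-3 RNAi, 0.238% under gld-2 RNAi, 0.402% under mex-5 RNAi and 0% in mex-6(pk440) against N2, and 0.274% for pos-1 against gld-3 RNAi, 0.567% for gld-3 against gld-2 RNAi and 0.0731% for mex-5 RNAi against mex-6(pk440). At an unadjusted p under 0.05 by limma there were 8, 2, 4, 7 and 0 of 36 receptors against N2 and 0, 0 and 3 in the other 3 comparisons. Of all 5471 genes tested, 635, 841, 903, 838 and 195 were under that level against N2. In the other 3 comparisons 470, 510 and 644 were. The smallest unadjusted p was that of nhr-137, at 29.5 and 35.5 nt in N2, 55.6 and 49.8 under pos-1 RNAi, 51.7 and 51.4 under gld-3 RNAi, 53.6 and 46.4 under gld-2 RNAi, 42.4 and 47.1 under mex-5 RNAi and 33.5 and 29.5 in mex-6(pk440). Its N2 and mutant libraries were the 4 shortest. The difference under pos-1 RNAi was 20.2 ± 5.32 nt (SE; limma adjusted p = 0.324). The smallest adjusted p against N2 under mex-5 RNAi was that of nhr-23, whose tails were 40.7 and 32.9 nt in N2 and 46.6 and 48.5 nt under mex-5 RNAi (difference 10.8 ± 3.03 nt, SE; limma adjusted p = 0.135). The propionate regulator nhr-68 had tails of 21.8 and 67.1 nt under gld-3 RNAi, the widest gap between its replicates in any group, against 64.2 and 54.3 under pos-1 RNAi and 57.96 and 57.1 under gld-2 RNAi. Without gld-3 RNAi replicate 2 it passed for pos-1 against gld-3 RNAi (37.5 nt longer, limma adjusted p = 0.0214) and for gld-3 against gld-2 RNAi (35.8 nt shorter, limma adjusted p = 0.0222), where the lone gld-3 RNAi library was assumed to vary like the other groups.

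The median difference of the 36 receptors' tails was 5.70 nt under pos-1 RNAi, 5.16 under gld-3 RNAi, 4.47 under gld-2 RNAi, 4.82 under mex-5 RNAi and 1.78 in mex-6(pk440) against N2, and the medians over all genes tested were 2.68, 2.13, 2.74, 1.83 and -0.20 nt. These 5 comparisons share the N2 libraries, of which replicate 2 had the shortest median tail of the 12 over all genes, 40.4 nt, and replicate 1 had 44.2 nt. For nhr-2, whose level fell under mex-5 and gld-2 RNAi, the tails were 43.1 and 37.9 nt in N2, 50.5 and 49.9 under mex-5 RNAi and 44.1 and 46.7 under gld-2 RNAi. For nhr-97, whose level rose in both, they were 40.02 and 34.1, 36.3 and 34.5 and 35.5 and 34.1 nt.

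More than 1 poly(A) peak was called in 9 of the 87 receptors that had a peak. In nhr-48, nhr-23, nhr-97, nhr-1 and nhr-17 the distal peak held between 82.2% and 97.6% of the peak reads, and in nhr-2 and nhr-35 the proximal one held 93.0% and 83.0%. The peaks were more even in nhr-94, where the proximal held 60.3%, and in nhr-61, where it held 44.1%. None of the 9 receptors passed for a change in its use of peaks against N2 by edgeR's diffSpliceDGE in the 5 comparisons. Of 1695 genes, 1.71%, 1.47%, 2.48%, 3.66% and 0.295% passed under pos-1, gld-3, gld-2 and mex-5 RNAi and in mex-6(pk440). With shares this low, a lack of calls among 9 receptors does not show that their use of peaks was unchanged. The peaks of nhr-35 and of nhr-61 began 66 and 59 bp apart with overlapping intervals, so their separate use is uncertain. At an unadjusted p under 0.05 the 1 receptor was nhr-23 under gld-2 RNAi, where its minor peak held 1.48% ± 1.71 (SD, n = 2) of its peak reads against 4.86% ± 3.70 (SD, n = 2) in N2. The minor peak of nhr-2 held 13.6% ± 4.04 (SD, n = 2) under pos-1 RNAi and 4.84% ± 1.76 (SD, n = 2) in N2, which did not pass (edgeR adjusted p = 0.891).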

How the data were processed

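The deposited gene and peak tables hold raw read counts, whole numbers that were not normalized. The authors also deposited a mean tail in nt for each gene or peak, left empty where none was estimated. Per the submitters' processing notes, reads were aligned with Bowtie2 2.2.2 to ce10, and per the file headers the genes follow the UCSC ce10 RefSeq set and the peaks came from nesoni. The sources used here do not say how tails were computed or how reads with several matches were assigned. The tables call the mex-6 columns RNAi where the titles give mex-6(pk440), and the titles were followed. Libraries were made without ribosomal RNA depletion and are directional, per the labels' protocols. Reads carry no described molecular identifiers, so intervals cover counting error only, and replicates differed by more than that (chi-square values were 16.3 to 51 times their degrees of freedom).

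For expression, the 12 libraries were fitted together in edgeR 4.0.16 (R 4.3.3) with TMM factors and filterByExpr, and 9403 genes were tested by quasi-likelihood. For tails, the uncentred values in nt went to limma 3.58.1 (trend on log2 mean reads, at least 10 reads and a value in all 12 libraries) over 5471 genes. Peak use was tested with diffSpliceDGE. Tests were two-sided, Benjamini-Hochberg adjustment ran over all genes of a comparison, and the threshold was 0.05. Each SE is that of a fitted coefficient. The scripts were tested on simulated data. Alternatives were DESeq2 1.42.0 and those named in the closing section.

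Genes were named by a rule: receptors past the threshold in any comparison, the 12 with the highest mean CPM, the tested members of 4 role lists (conserved, metabolic, stress or xenobiotic, development), and of the pathway list those that passed and up to 6 others. The untested genes nhr-6, nhr-85 and nhr-111, the neighbours on chromosome V, the receptors with notable tails or peaks, and the targeted genes were named outside it. The members and lists were chosen with earlier results of these data known. Markers of late embryo and larval tissue, yolk and adult intestine, sperm, maternal and early zygotic genes were summed; the 9 early zygotic markers stood at 135 to 144 CPM in N2, 49.1 to 63.8 under pos-1 RNAi and 77.2 to 84.5 under mex-5 RNAi. No peptide, transcript or genome sequence was used here.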

Additional observations from a re-analysis of the deposited data

How the results depend on the processing

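Leaving out 1 library at a time gave 13 to 23 calls for mex-5 RNAi against N2 (34 with all), 4 to 6 for gld-2 RNAi (12), 0 to 4 for pos-1 RNAi (6), 0 to 2 for gld-3 RNAi (1), 6 to 14 for mex-5 RNAi against mex-6(pk440) (18), 0 to 2 for pos-1 against gld-3 RNAi (1) and 0 to 1 for gld-3 against gld-2 RNAi (0), and 0 to 1 tail calls for pos-1 against gld-3 RNAi and for gld-3 against gld-2 RNAi (0). A smaller sample is part of each of these by construction. The shares of all genes tested that passed with 1 library left out were 18.5% to 21.2%, 12.1% to 15.6%, 3.52% to 8.39%, 1.24% to 7.27%, 9.3% to 13.6%, 1.45% to 3.2% and 2.64% to 6.7% in the 7 expression comparisons, in that order, and at most 0.164% and 0.273% in the 2 for tails. Without the low-count filter there were 15 calls for pos-1 RNAi (9 higher, 6 lower; 8.36% of all genes), 3 for gld-3 RNAi (6.9%), 3 for pos-1 against gld-3 RNAi (3.56%) and 2 for gld-3 against gld-2 RNAi (8.9%). With the 4 libraries of a comparison alone there was 1 call for pos-1 RNAi (4.73%) and 0 for gld-3 RNAi (3.78%). DESeq2 gave 11 calls for mex-5 RNAi against mex-6(pk440) (8.94%), and 25 for mex-5 RNAi against N2 (13.1%). With mex-6(pk440) in place of N2 as the control, an alternative chosen after seeing the data, 3 receptors passed for pos-1 RNAi (0 higher, 3 lower; 4.64%), 0 for gld-3 RNAi (0.51%), 6 for gld-2 RNAi (3 higher, 3 lower; 19.7%) and 18 for mex-5 RNAi (15 higher, 3 lower; 20.8%). The cause was not tested.

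The replicate numbers do not pair the samples by the labels, and same-numbered libraries deviated together unevenly (correlations of -0.149 to 0.455 in expression and -0.146 to 0.254 in tails). With the number as a replicate block, 13 receptors passed for pos-1 RNAi (8 higher, 5 lower; 16% of all genes), 2 for gld-3 RNAi (12.8%), 19 for gld-2 RNAi (17 higher, 2 lower; 33.3%) and 2 for gld-3 against gld-2 RNAi (15.7%). The other counts with the block were within 1.5 times the main ones.

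Of the single-gene calls no direction reversed under any setting: 543 values kept their side of the threshold and 224 did not. At this depth 24 receptors had no read (11.1%, against 10.2% of features with 1 coding gene), and for the 120 of 217 that did not reach the expression test no change could be assessed.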
